A study of Mus musculus with 3 samples.

Results

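The *Hox* genes are the homeobox genes of the 4 mammalian clusters, and they were taken here as the protein-coding genes of the mouse annotation whose symbol is *Hoxa*, *Hoxb*, *Hoxc* or *Hoxd* followed by a number. This gave 39 genes of 22028 protein-coding genes, with 11 in *Hoxa*, 10 in *Hoxb*, 9 in *Hoxc* and 9 in *Hoxd*. Open chromatin was measured by ATAC-seq, in which a transposase cuts and tags accessible DNA, in pre/pro-B-cell lines grown from the bone marrow of C57BL/6 mice after transduction with a retrovirus that carries BCR-ABL(p185) and GFP. The mice were homozygous for wildtype CDK6 (*Cdk6*+/+, here WT) or for the kinase-inactive mutant K43M (*Cdk6* KM/KM, here K43M), so both groups carry the oncogene and differ by the *Cdk6* allele. Each of the 4 peak lists comes from 1 line, with 2 lines per genotype: WT unnumbered, WT replicate 2, K43M replicate 1 and K43M replicate 2, and runs of 4 values below follow this order. The list called WT unnumbered has no sample label of its own here and was placed in WT by the series' design text, which says that the first wildtype line had been deposited with an earlier series and was analysed anew. A WT library thus comes from an earlier series, and whether that bears on the differences between WT and K43M lists was not tested. Nothing in the labels says whether the lines of a genotype come from separate animals, so differences between lists measure the spread between lines. Age and sex were not given in the sources used here.

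*Hox* genes encode transcription factors that set position along the body axis, and in blood the *Hoxa* and *Hoxb* genes are used by stem and progenitor cells and are turned down as cells mature. The encoded proteins bind DNA together with TALE partners such as the PBX and MEIS proteins. Trithorax proteins, with MLL1 (*Kmt2a*) among them, keep *Hox* clusters active, Polycomb proteins keep them repressed, and the insulator protein CTCF binds between genes of the clusters and separates their domains.

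In the peak lists most *Hox* promoters had no peak. Of the 39 genes, 30 (76.9%) had no peak in the promoter window in any list, against 43.5% of all protein-coding genes, and the window ran from 2000 bp before to 200 bp after every annotated transcript start. The number of *Hox* genes with a promoter peak was 5 and 5 in the WT lists and 5 and 2 in the K43M lists. Over all protein-coding genes the shares with a promoter peak in these lists were 50.6%, 50.4%, 53.9% and 52.5%. A promoter peak in all 4 lists was found for 1 *Hox* gene, *Hoxa7* (2.56%), against 47.5% of all protein-coding genes. It was found in both WT lists and neither K43M list for *Hoxb7*, a class that holds 0.513% of all genes. No *Hox* gene had one in both K43M lists and neither WT list, a class with 1.99% of all genes. The remaining 7 genes had a promoter peak in 1 or 3 lists. The absence of a peak means that the signal did not pass the peak caller in that line. In a line that holds a mixture of cells, a site that is open in fewer cells and a site that is less open in every cell cannot be told apart.

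Low peak frequency at *Hox* promoters was seen at CpG-rich promoters too, which are open in most cell types. Here a promoter was called CpG-rich when the 500 bp on either side of the 5′ end of the gene had a G and C content over 50% and an observed to expected CpG ratio over 0.6. Among all 9738 CpG-rich protein-coding promoters, 77.1% had a peak in all 4 lists and 14.3% had none. Among the 24 *Hox* genes with such a promoter, 21 (87.5%) had none and 1 (4.17%) had a peak in all 4 lists. The same was counted for other developmental homeobox genes, such as the *Dlx*, *Lhx*, *Nkx*, *Irx* and *Pitx* families, a list assembled after the *Hox* values were seen. Of the 54 such genes with a CpG-rich promoter, 44 (81.5%) had no promoter peak in any list and 5 (9.26%) had one in all 4. Of all 72, 57 (79.2%) had none and 6 (8.33%) had one in all 4.

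**Figure D1:**
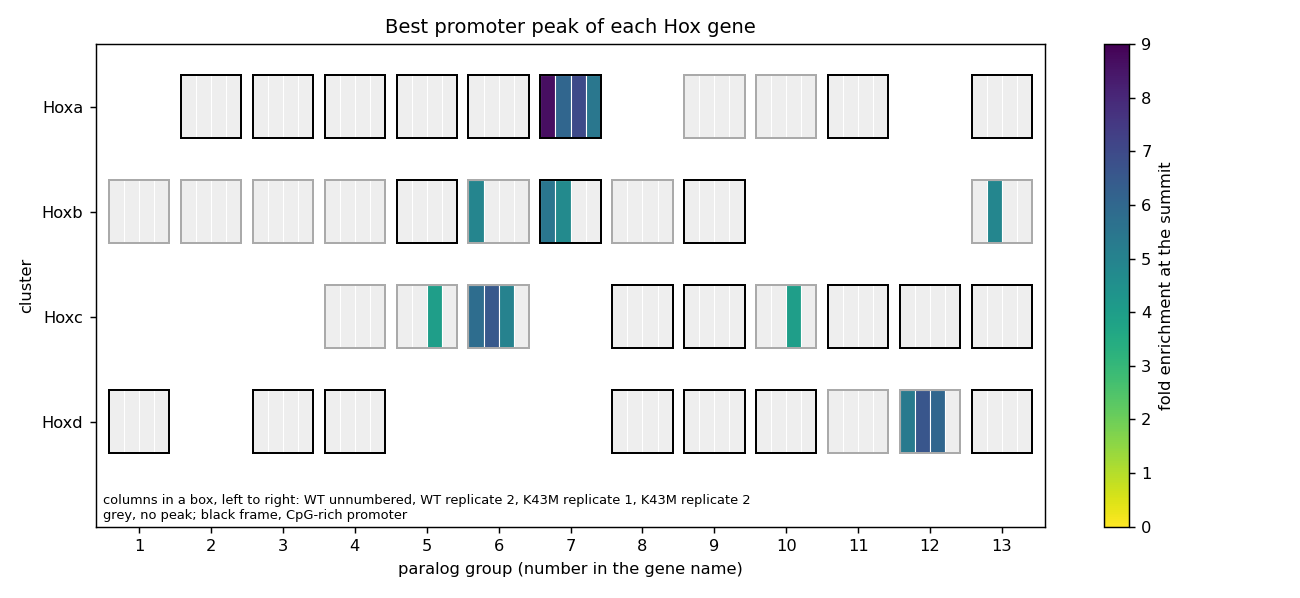
Fold enrichment at the summit of the best promoter peak of each Hox gene, by cluster (rows) and paralog group (columns), with 1 column per list inside each box, grey where the list has no peak and a black frame for a CpG-rich promoter. Of the 38 genes drawn, 30 are grey throughout, and only Hoxa7 is coloured in all 4 lists.

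The sites that carried peaks are shown by their DNA, because several hold a match to the CTCF motif. The sequences are of the plus strand of GRCm38 (mm10), 5′ to 3′, read from the RefSeq assembly, and end 60 bp on either side of the region's summit. Capitals mark the match to the CTCF consensus of 14 bases with at most 2 mismatches, searched on both strands with its centre within 30 bp of the summit. The first sequence is the site with a peak in all 4 lists at the most upstream annotated start of *Hoxa7*, cut to 30 bases because it overlaps an annotated UTR.
*Hoxa7*-*Hoxa9* site, chr6:52221799-52221828: gagccacaCTGCCATCTCCTGGaattttct
The next sequences are sites with a peak in 3 lists, between *Hoxd13* and *Hoxd12* and in the introns of *Hoxd3* and *Hoxd4*.
*Hoxd13*-*Hoxd12* site, chr2:74673117-74673237: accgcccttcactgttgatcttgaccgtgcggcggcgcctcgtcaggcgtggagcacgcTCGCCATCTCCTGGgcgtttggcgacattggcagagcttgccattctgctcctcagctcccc
*Hoxd3*-*Hoxd4* intron site, chr2:74715894-74716014: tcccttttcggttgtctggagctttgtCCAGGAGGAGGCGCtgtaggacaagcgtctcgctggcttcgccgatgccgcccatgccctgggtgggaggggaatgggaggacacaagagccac
The last sequences have no match within the limit of 2 mismatches, which was chosen after the sites had been seen. The first of them had a peak in all 4 lists, and the second, upstream of *Hoxb7*, in both WT lists and neither K43M list. Near its summit the first also holds a stretch that resembles the consensus with more than 2 mismatches.
*Hoxc9*-*Hoxc8* site, chr15:102987542-102987662: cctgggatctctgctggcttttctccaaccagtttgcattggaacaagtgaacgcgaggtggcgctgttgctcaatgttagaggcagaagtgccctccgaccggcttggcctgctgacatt
*Hoxb7* upstream site, chr11:96285330-96285450: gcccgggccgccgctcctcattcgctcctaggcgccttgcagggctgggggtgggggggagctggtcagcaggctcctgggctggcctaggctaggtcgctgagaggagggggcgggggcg

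Overlapping peaks of the 4 lists were merged into regions, and 24 of the 50965 merged regions lay in the clusters. A CTCF match of this kind was found in 10 (41.7%) of the 24 cluster regions and in 4 (57.1%) of the 7 with a peak in 3 or 4 lists. It was found in 13.8% of 50867 merged regions with sequence, in 15.7% of those outside promoter windows, and in 1.52% of 1580 windows of the same length tiled over peak-free parts of the clusters. The number of mismatches and the distance to the summit were chosen after the sites had been seen, and a match is not a measurement of binding. The match of the *Hoxa7* site had 1 mismatch and the other 9 matches had 2. The composite motif of HOX and PBX proteins, TGATTNAT, was searched on both strands within 150 bp of the summits and was found in 0 of the 24 regions, against 2.44% of all merged regions. The motif TCCCNNGGGA of the B-cell factor EBF1 was found in 1 cluster region, the *Hoxa7* site, against 3.36% of all merged regions.

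*Hoxa7* was the gene with the most frequent promoter peak. Its region (chr6:52221651-52221994) had fold enrichments of 8.67 and 6.07 in the WT lists and 6.98 and 5.43 in the K43M lists, where fold enrichment is the signal at the summit over the local background of the same library. The pileups at the summit were 19, 12, 17 and 13 read ends. The values of the genotypes overlapped, and within each list the peak stood at percentile 50.5, 27.1, 43.6 and 23.7 by -log10 q, so it was an ordinary or weaker peak of its library. Which start it belongs to depends on the annotation. The summit lay 37 bp inside the start of Hoxa7-204, a transcript with support level 5 and an end marked as not found, and 4.31 kb upstream of the start of the principal *Hoxa7* transcript, toward *Hoxa9*. With only the starts of transcripts tagged as principal, 0 *Hox* genes had a promoter peak in all 4 lists, against 44.9% of the 21951 protein-coding genes with such a start, and 32 of the 39 had none in any list. This setting was added after the position of the *Hoxa7* peak was seen. The next neighbours, *Hoxa9* and *Hoxa10*, which are active in many myeloid leukaemias, had no peak in promoter or gene body, and their starts were 4.37 and 11.5 kb from the nearest cluster peak summit.

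*Hoxd12* and *Hoxc6* had a promoter peak in every list but K43M replicate 2. For *Hoxd12*, one of the posterior *Hoxd* genes of limb and genital development, the fold enrichments were 5.33 and 6.60 in the WT lists and 6.07 in K43M replicate 1. Its summit lay 1.84 kb upstream of the start, at the CTCF-matched site between *Hoxd13* and *Hoxd12*. For *Hoxc6* they were 5.83, 6.53 and 5.03 in the same order. That peak lay in a *Hoxc6* intron of the annotation, 1.14 kb upstream of the incomplete transcript Hoxc6-203 and 10.2 kb from the principal start. The K43M replicate 1 value lay between the WT values for *Hoxd12* and below both for *Hoxc6*, and K43M replicate 2 gave no value for either gene. The library without the peaks had the lowest background of the 4, at 48.4 read ends per 10 kb against 55.1 to 65.3 in the others. Its part in the missing peaks was not tested. Without K43M replicate 2, the number of *Hox* genes with a promoter peak in every list was 3 rather than 1.

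The other promoter peaks were seen in single lists, apart from a site at *Hoxb7* shared by both WT lists. *Hoxb7* had 2 promoter peaks in each WT list and none in either K43M list. The best of each lay at the shared site, with fold enrichments of 5.45 in WT unnumbered and 4.73 in WT replicate 2. The weaker peaks lay at different sites, each seen in a single list (3.72 in WT unnumbered and 3.9 in WT replicate 2). *Hoxb6* had a promoter peak in WT unnumbered (4.92), with a summit 85 bp before the start of Hoxb6-202, a principal transcript with support level 5. *Hoxb13*, the most posterior *Hoxb* gene, had one in WT replicate 2 (4.86), 75 bp before its start. *Hoxc10* had one in K43M replicate 1 (3.99), and the same peak counted for *Hoxc5* through a long noncoding transcript of *Hoxc5* that starts nearby. *Hoxc5* had a further peak in that list, 103 bp before the start of its coding transcript, with a fold enrichment of 3.36. Single-list promoter peaks had summit pileups of 9 to 24 read ends and were not replicated within their genotype.

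The promoters of the 30 other genes had no peak in any list. In *Hoxa* these were *Hoxa2*, *Hoxa3*, *Hoxa4*, *Hoxa5*, *Hoxa6*, *Hoxa9*, *Hoxa10*, *Hoxa11* and *Hoxa13*. In *Hoxb* they were *Hoxb1*, *Hoxb2*, *Hoxb3*, *Hoxb4*, *Hoxb5*, *Hoxb8* and *Hoxb9*. In *Hoxc* they were *Hoxc4*, *Hoxc8*, *Hoxc9*, *Hoxc11*, *Hoxc12* and *Hoxc13*. In *Hoxd* they were *Hoxd1*, *Hoxd3*, *Hoxd4*, *Hoxd8*, *Hoxd9*, *Hoxd10*, *Hoxd11* and *Hoxd13*. Of these 30 genes, 7 had a peak in the gene body in at least 1 list, namely *Hoxa3*, *Hoxb4*, *Hoxb8*, *Hoxc9*, *Hoxc11*, *Hoxd3* and *Hoxd4*, and 23 had no peak in promoter or body. The distance from their starts to the nearest peak summit of the clusters ran from 0.352 kb (*Hoxb4*) to 47.1 kb (*Hoxb1*), with a median of 6.83 kb. By position on the body axis, no promoter peak was seen in 11 of 12 anterior genes (paralog groups 1 to 4), in 6 of 11 central genes (groups 5 to 8) and in 13 of 16 posterior genes (groups 9 to 13).

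Across whole clusters, from the first to the last base of their *Hox* genes, peaks were few but not absent. *Hoxa* (chromosome 6, 52155590 to 52260880, 105 kb) had 2 and 1 peaks in the WT lists and 2 and 3 in the K43M lists. *Hoxb* (chromosome 11, 96194316 to 96368256, 174 kb) had 5, 10, 3 and 1. *Hoxc* (chromosome 15, 102921103 to 103036852, 116 kb) had 3, 3, 4 and 1, and *Hoxd* (chromosome 2, 74668310 to 74765142, 96.8 kb) had 1, 2, 2 and 1. In all, 11, 16, 11 and 6 peaks were found, or 2.24, 3.25, 2.24 and 1.22 per 100 kb, against 1.21, 1.25, 1.43 and 1.27 per 100 kb of the genome. The clusters therefore held about as many peaks per length as the genome in K43M replicate 2 and more in the other lists. Even so, 30 of the 39 *Hox* promoters had no peak in any list. Peaks covered 0.79%, 0.971%, 0.598% and 0.363% of the bases of the clusters, against 0.647%, 0.636%, 0.725% and 0.629% of the genome. By this measure the clusters stood above the genome in both WT lists and below it in both K43M lists. The cluster peaks were weak and narrow. Of 44 cluster peaks, 4 stood above the median of their list by -log10 q. The median fold enrichments were 5.33, 5.17, 5.03 and 6.10, against 6.94, 6.71, 6.76 and 6.61 for the whole lists, and the median widths were 292, 304, 254 and 294 bp against 419, 394, 389 and 397 bp.

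**Figure D2:**
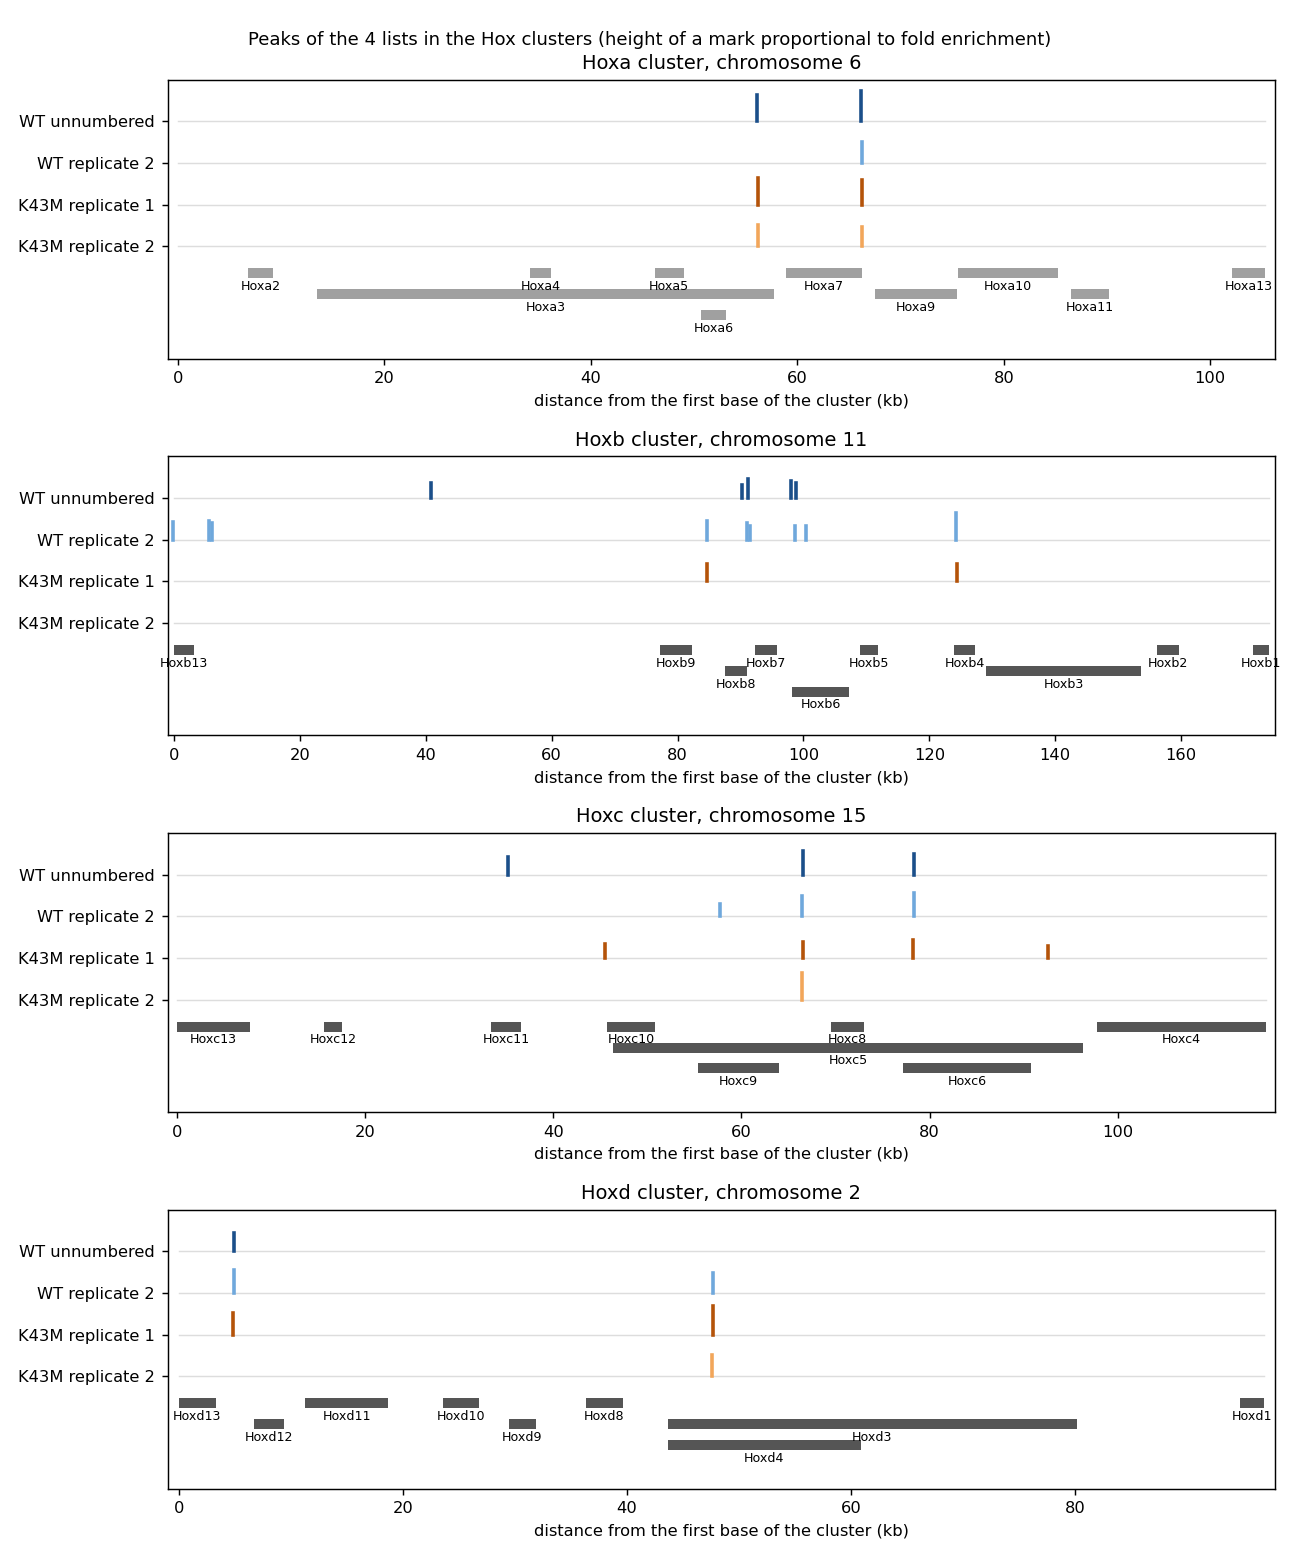
Peaks of the 4 lists along the Hox clusters, in kb from the first base of each cluster, with 1 track per list, mark height proportional to fold enrichment, and genes below (dark on the plus strand, light on the minus strand). The peaks of 2 sites and 1 gene are not drawn. Peaks recur at the same place near Hoxa7, between Hoxc9 and Hoxc8 and at the Hoxd sites, while the stretch from Hoxb8 to Hoxb6 carries marks in the WT tracks only.

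Long stretches had no peak in any list. In *Hoxa* a stretch of 53.1 kb, overlapped by the extended *Hoxa3* transcript and holding *Hoxa2*, *Hoxa4*, *Hoxa5* and *Hoxa6*, made up 50.5% of the cluster. In *Hoxd* the 49.0 kb that end with *Hoxd1* made up 50.6% of the cluster. The anterior end of *Hoxb*, with *Hoxb1*, *Hoxb2* and *Hoxb3*, was free of peaks over 49.5 kb, and the posterior end of *Hoxc*, with *Hoxc12* and *Hoxc13*, over 34.8 kb.

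Of the 24 cluster regions, 2 (8.33%) had a peak in all 4 lists, against 41.2% of all merged regions, and 13 (54.2%) had a peak in 1 list, against 28.7%. The region at *Hoxa7* was one of the former. The other (chr15:102987451-102987743) lay between *Hoxc9* and *Hoxc8*, 3005 bp upstream of the *Hoxc8* start, with fold enrichments of 6.80, 5.69, 4.46 and 7.67. Here K43M replicate 2 had the highest value and K43M replicate 1 the lowest, with both WT values between them. A further 5 regions had a peak in 3 lists. The intron site of *Hoxd3* and *Hoxd4* had fold enrichments of 5.62 in WT replicate 2 and of 8.08 and 6.10 in the K43M lists. An intron site of *Hoxa3*, 1.39 kb from the nearest *Hoxa3* start, had 7.37 in WT unnumbered and 7.55 and 6.10 in the K43M lists. The sites of *Hoxd12* and *Hoxc6* given above belong to this group too.

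The question the design asks of these genes is whether chromatin at the *Hox* clusters differs between lines with wildtype and kinase-inactive CDK6. Over the clusters, 2 regions (8.33%) had a peak in both WT lists and neither K43M list, against 4.51% of all merged regions, and 0 had one in both K43M lists and neither WT list, against 7.64%. Both WT-only regions lay in *Hoxb*. The first (chr11:96285220-96285619), between *Hoxb8* and *Hoxb7* and overlapping an annotated *Hoxb8* UTR, had fold enrichments of 5.45 and 4.73, with pileups of 35 and 20 read ends at the summit. The second (chr11:96292806-96293214) had 4.17 and 3.81, with pileups of 19 and 14. Its summit lay 608 bp downstream of the start of Hoxb6-202, a *Hoxb6* transcript with support level 5. These counts are small and moved when a library was left out. The WT-only regions then numbered 8 without WT unnumbered, 6 without WT replicate 2, 4 without K43M replicate 1 and 2 without K43M replicate 2. The K43M-only regions numbered 1, 2, 1 and 2 in the same order, and the regions with a peak in every list 4, 3, 2 and 4. WT-only *Hox* promoters numbered 2, 2, 3 and 1, and K43M-only *Hox* promoters 0, 0, 1 and 2.

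Bases covered by peaks in the 4 clusters were 3884 and 4777 in the WT lists (mean 4330.5 ± 631, SD, n = 2), and 2942 and 1787 in the K43M lists (mean 2364.5 ± 817, SD, n = 2). Both K43M lists thus had fewer covered bases than both WT lists, and the difference was -1966 bases (two-sided exact permutation test over the 6 assignments of lists to genotypes, p = 0.333). This is the smallest p-value that 2 lists against 2 allow, so this test cannot pass a threshold of 0.05 here. The genome-wide background was also lower in the K43M lists (55.1 and 48.4 read ends per 10 kb) than in the WT lists (65.3 and 56.7), and its part in the difference was not tested. Over the genome the covered bases overlapped between genotypes, with 17643036, 17324063, 19772297 and 17148417 bases. Most of the difference in the clusters came from *Hoxb*, where 1688 and 2852 bases were covered in the WT lists and 691 and 290 in the K43M lists (difference -1779.5, exact permutation test, p = 0.333). In *Hoxa* (difference 248.5, exact permutation test, p = 0.667), *Hoxc* (-543.5, p = 0.667) and *Hoxd* (108.5, p = 0.667) the genotypes overlapped. The number of *Hox* genes with a promoter peak differed by -1.5 (WT mean 5 ± 0, K43M mean 3.5 ± 2.12, SD, n = 2, exact permutation test, p = 1), with K43M replicate 1 at the WT value. Over all protein-coding genes that number was higher in the K43M lists, by 587.5 genes (exact permutation test, p = 0.333).

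Within *Hoxb*, the peaks were also counted from *Hoxb8* to *Hoxb6*, a stretch of 19.7 kb chosen after the values were seen (chr11:96281905-96301569). It had 4 of the 5 *Hoxb* peaks of WT unnumbered, 4 of the 10 of WT replicate 2 and 0 in each K43M list, and the covered bases were 1487 and 1270 against 0 and 0. The peaks of the WT lists overlapped only at the 2 WT-only regions given above, and the others were each seen in a single WT list. *Hoxb8*, *Hoxb7* and *Hoxb6* are central *Hox* genes, and *Hoxb8* is known for blocking differentiation when overexpressed in myeloid progenitors. At these peaks the local background of the WT libraries, recovered from the deposited values, was above the genome-wide value, as it was at most peaks. It was 190 to 286 read ends per 10 kb in WT unnumbered, or 2.91 to 4.38 times its genome-wide value of 65.3, and 146 to 172 in WT replicate 2, or 2.57 to 3.03 times its value of 56.7. Over all peaks of these lists the median local background was 145 and 125 read ends per 10 kb, or 2.22 and 2.20 times the genome-wide value. No background can be recovered there for the K43M libraries, since they had no peak in the stretch. At the site upstream of *Hoxb8*, 2971 bp before its start, where WT replicate 2 and K43M replicate 1 both had a peak, the fold enrichments were 5.22 and 4.76 and the local backgrounds 84 and 55.1, the latter being the genome-wide value of its library. *Hoxb4*, a gene of blood stem cell expansion, had an exonic peak in WT replicate 2 (7.41) and K43M replicate 1 (4.76).

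**Figure D3:**
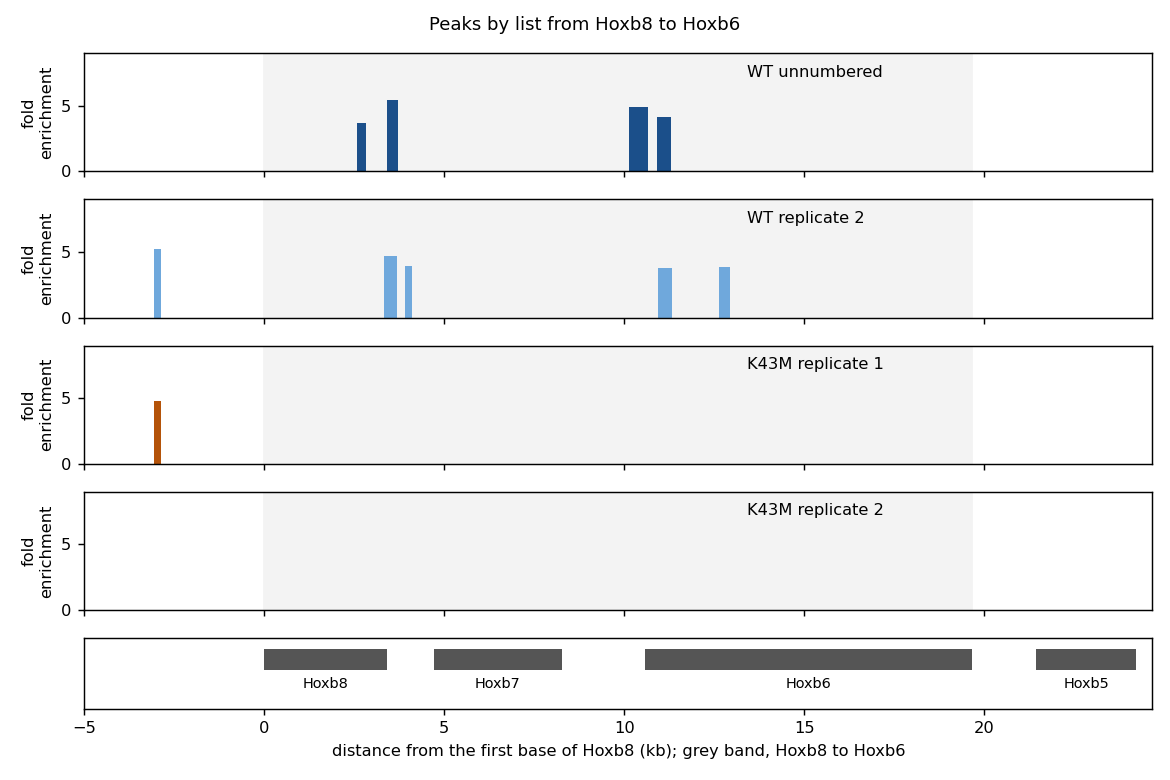
Fold enrichment and width of the peaks from upstream of Hoxb8 to Hoxb6 by list, in kb from the first base of Hoxb8, with a grey band from Hoxb8 to Hoxb6 and genes in the lowest panel. The band holds 4 peaks in each WT list and 0 in each K43M list, and the K43M peak shown lies outside it. The peaks of the WT lists overlap at 2 sites only.

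Outside the clusters, the 100 kb on either side of each held 16 merged regions, of which 2 had a peak in all 4 lists, 3 in both WT lists and neither K43M list, and 0 in both K43M lists and neither WT list. Over all merged regions these classes hold 41.2%, 4.51% and 7.64%. The WT-only regions had higher fold enrichments than those inside *Hoxb*. One lay 73.5 kb beyond *Hoxb1* toward *Skap1* (chr11:96441516-96442159), with fold enrichments of 8.57 and 10.1. Another lay 88.0 kb beyond it (chr11:96455693-96456507), with 5.88 and 7.08. The last lay 25.6 kb from *Hoxd13* beyond *Evx2* (chr2:74642338-74642968), with 7.72 and 6.25. The regions in all 4 lists lay at the promoters of the flanking genes *Lnpk* and *Mtx2*, on either side of *Hoxd*.

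Other transcripts of the clusters were counted in the same way. Of 46 other annotated genes between the first and last *Hox* gene, most of them antisense and small RNAs, 6 had a promoter peak in any list and 0 in all 4. No share over all genes of these types was computed, so whether these counts are low was not tested. *Hoxd3os1*, an antisense gene of *Hoxd3*, had one in 3 lists through the intron site. The homeobox genes *Evx1* and *Evx2*, which sit beside *Hoxa* and *Hoxd*, had no promoter peak in any list. Of 6 CDX and ParaHox genes, which include the *Cdx* activators of *Hox* genes, none had a promoter peak in all 4 lists. *Gsx1* had one in K43M replicate 2 (3.50) and *Pdx1* in WT replicate 2 (4.50), and *Cdx1*, *Cdx2*, *Cdx4* and *Gsx2* had none.

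Genes whose products act on or with *Hox* genes mostly had promoter peaks, against shares in all 4 lists of 47.5% of all protein-coding genes and 77.1% of those with a CpG-rich promoter. Of the Trithorax and MLL complex, Polycomb, and CTCF and cohesin genes below, 10 of 14, 16 of 19 and 5 of 6 had a CpG-rich promoter. All 14 genes of the Trithorax and MLL complex list had a promoter peak in all 4 lists. Not all of them encode members of those complexes, *Dot1l* being an example. *Kmt2a* had 6.80, 6.50, 7.63 and 6.14 and the menin gene *Men1* 7.84, 7.26, 9.07 and 6.90. Of 19 Polycomb genes, 18 had one in all 4 lists, the methyltransferase gene *Ezh2* with 11.0, 10.6, 9.73 and 10.6. The exception was *Pcgf2*, with 3.44, 3.08 and 3.78 in WT unnumbered and the K43M lists and none in WT replicate 2. All 6 CTCF and cohesin genes had one in all 4 lists. Of 11 TALE cofactor genes, 8 (72.7%) did, and 7 of the 11 had a CpG-rich promoter. This share lay between the 47.5% of all protein-coding genes and the 77.1% of those with a CpG-rich promoter. *Meis1*, the partner of *Hoxa9* in leukaemia, had none in any list. *Pknox2* had one in both K43M lists (5.19 and 5.42) and neither WT list.

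**Figure D4:**
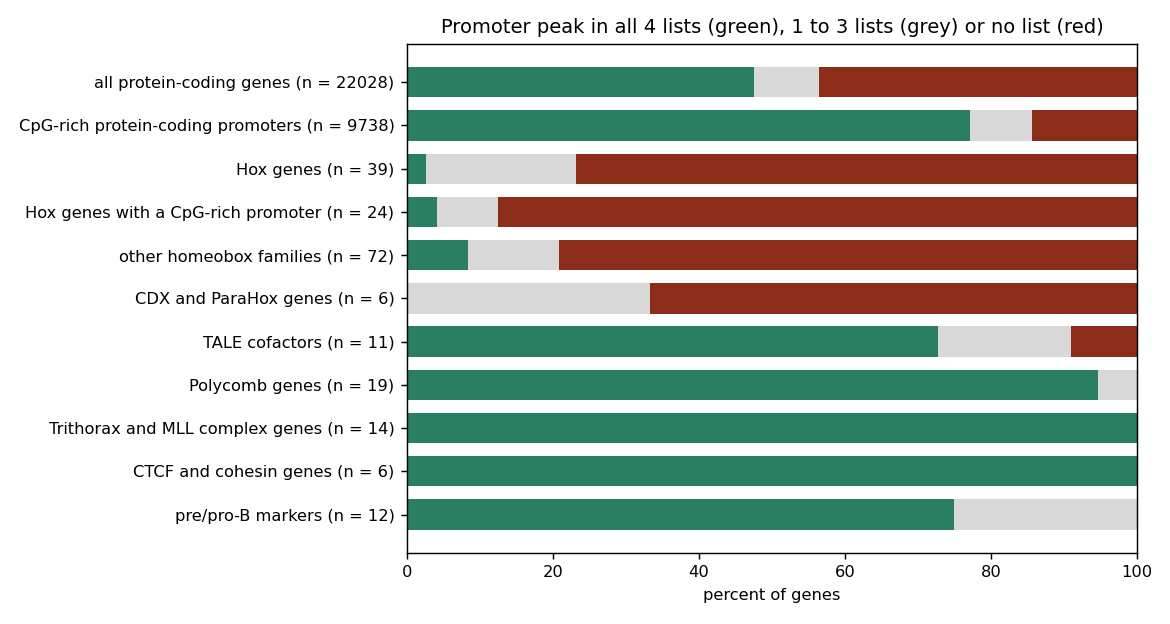
Percent of genes with a promoter peak in all 4 lists (green), 1 to 3 lists (grey) or no list (red), for all protein-coding genes, Hox genes and the lists named in the text, with the number of genes beside each bar. The red part is 76.9% for Hox genes and 79.2% for the other homeobox families, against 43.5% for all protein-coding genes.

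The labelled cell type was checked by the same measure. Of 12 pre/pro-B markers, 12, 11, 12 and 10 had a promoter peak in the 4 lists, and *Cd79b*, *Rag1* and *Rag2* each lacked it in 1 list. *Cd79b* had 3.80, 4.59 and 4.20 in all lists but K43M replicate 2, *Rag1* 6.41, 5.71 and 6.21 in the same lists, and *Rag2* 4.55, 7.22 and 5.03 in all but WT replicate 2. Over all protein-coding genes the shares with a promoter peak were 50.6%, 50.4%, 53.9% and 52.5%, and 43.5% had none in any list. None of 6 T-cell markers had a promoter peak in any list. Of 6 myeloid markers, *Cebpe* had one in 3 lists (5.69, 6.70 and 5.04, none in K43M replicate 2). Of 6 erythroid and megakaryocyte markers, *Itga2b* had one in WT replicate 2 and both K43M lists (5.95, 11.3 and 10.3). Of 4 markers of other tissues, *Gfap* had one in WT replicate 2 (5.56).

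Peak lists give no read totals, so depth was judged by the background recovered from the fold enrichment and -log10 p of each peak. The lists held 33038, 34248, 39038 and 34752 peaks, and the genome-wide background was 65.3, 56.7, 55.1 and 48.4 read ends per 10 kb. At that background the lowest pileup called was 7 read ends in WT unnumbered and 6 in the others. The 44 cluster peaks had summit pileups of 9 to 35 read ends with a median of 15, against medians of 26, 23, 23 and 22 over the whole lists. Sites with pileups below the lowest ones called would not appear in the lists at this depth.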

How the data were processed

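ATAC-seq libraries of 4 lines were used, 2 per genotype. Per the labels and the study's methods, the authors trimmed reads with Trimmomatic 0.36, mapped them to mm10 with BWA 0.7.15, filtered them with SAMtools 1.3.1 and bedtools, and called peaks per library with MACS2 2.1.0 (shift -100, extension 200), with no control or pooling named. The deposited fold enrichment is a ratio of summit signal to local background, and the deposited -log10 p and -log10 q were used only within a list. Summit pileup and background were recovered from them for 100% of peaks (tolerance 0.001 in -log10 p), which was tested on simulated data. A peak counted for a gene when it shared at least 1 bp with a window, using GENCODE M21 with Python 3.11.15, numpy 2.4.6, scipy 1.17.1 and pysam 0.24.0. Regions are peaks merged through shared bases, and percentiles are ranks within a list. Genes were named by a rule: *Hox* genes with a promoter peak in 1 to 3 lists, the best 3 per cluster with one in all 4, regions of 1 genotype, and list members without a peak in all 4 lists. Other genes named were chosen after their values were seen. The members, lists and tests were chosen with earlier results of these data known. Counts of genes and regions carry no test. Alternatives changed the -log10 q minimum, peak number, window, starts, cluster ends, merging rule and lists. Reads and other data types were not analysed here. Some genes and sequences are not reported here.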

Additional observations from a re-analysis of the deposited data

How the results depend on the processing

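With lists left out in turn, the number of *Hox* genes with a promoter peak in every list ran from 1 to 3, of those in both WT lists only from 1 to 3, of those in both K43M lists only from 0 to 2, and the K43M minus WT mean number from -3 to 0. With promoter windows reaching 500 bp to each side that difference was 0. With principal starts only, a setting added after seeing the data, 0 *Hox* genes had a peak in all 4 lists. Cluster regions in every list ran from 2 to 4 with lists left out, WT-only regions from 2 to 8 and K43M-only regions from 1 to 2. With only peaks of -log10 q of at least 5, there was 1 region in all 4 lists, 1 in the WT lists only and 1 in the K43M lists only, and with 33038 peaks in each list there was 1 in all 4. The K43M minus WT difference in covered bases was negative in every alternative run, from -2543.5 to -1388.5 with lists left out, -1838 with the -log10 q minimum, -2380 with equal peak numbers and -2195 with 10 kb added at either end. No value changed sign. Fewer lists or peaks make a class easier or harder to enter by construction. No paired analysis was possible because the column of 1 WT list carries no replicate number, so the genotypes share fewer than 2 numbers, and nothing in the labels says that a number pairs lines across genotypes.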
